A study of Mus musculus with 35 samples.

Results

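Skeletal muscle holds a set of substrate adaptors for cullin ubiquitin ligases, and 10 of their genes are described here: the ankyrin repeat and SOCS box genes Asb2, Asb5, Asb10, Asb11, Asb12 and Asb15, and the kelch genes Klhl31, Klhl38, Klhl40 and Klhl41. They were taken by gene symbol from an expression table of 19938 genes. Klhl31 had 2 rows, of which the brighter on average was kept, and each of the other members had 1 row. Expression was measured in quadriceps muscle of female mice aged 2 months, on 35 arrays of 1 mouse each, since the labels call the samples biological replicates. The classes were control mice, Mstn-null mice, which lack the secreted muscle growth inhibitor myostatin, and mice that received 1 or 4 doses of the decoy ActRIIB-Fc, in which a receptor for myostatin and other activin-type ligands is made soluble. Each class had 3 arrays in an original experiment (experiment 1). In an independent second experiment (experiment 2) there were 8 Mstn-null arrays and 5 of each other class. The Mstn allele, the strain, the amount and timing of the doses and what the controls received are not given in the sources used here. Precision is limited by these numbers of arrays.

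Asb proteins carry ankyrin repeats that bind a substrate and a SOCS box that recruits elongin B, elongin C and cullin 5. Kelch proteins bind substrates through kelch repeats and recruit cullin 3 through a BTB domain. In both kinds the assembled ligase adds ubiquitin to the bound protein once the cullin carries NEDD8, although some muscle kelch proteins are known to stabilise their partners instead. Several of these genes are expressed mainly in striated muscle, and loss of KLHL40 or KLHL41 causes nemaline myopathy in humans.

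Values are log2 expression values, comparable for a gene between arrays of an experiment but not between genes. The array medians ran from 4.73 to 4.86 in experiment 1 and from 6.34 to 6.54 in experiment 2, so levels were set side by side only within an experiment. Mstn lay between 5.78 and 6.69 on Mstn-null arrays and between 6.77 and 7.68 on control arrays in experiment 1. In experiment 2 it lay between 6.29 and 7.84 on Mstn-null arrays and between 9.84 and 10.21 on control arrays, so the groups did not overlap in either experiment. The 8 markers of the skeletal muscle fibre were at or above percentile 99.1 of all genes on control arrays. Arrays of 1 group correlated across genes between 0.954 and 0.996, and none was a copy of another. A change was called at an adjusted p under 0.05 (limma, Benjamini-Hochberg over all 19938 genes), and it is given as a log2 difference with its standard error. In whole muscle, fewer cells of a type and less RNA per cell cannot be told apart.

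Asb15 was lower than in control muscle in all 3 other classes, and Klhl38 was lower after either number of doses. Asb2 was lower after 1 dose and was not called after 4. In the Mstn-null class, where 16.4% of all genes were called lower, Asb11 and Klhl41 were lower as well. After 4 doses Asb10 was lower and Asb12 higher. Klhl31, Klhl40 and Asb5 passed the threshold in none of the 6 comparisons over both experiments. All comparisons against control share the same 8 control arrays, so the classes are given side by side and no likeness between them was computed.

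**Figure D1:**
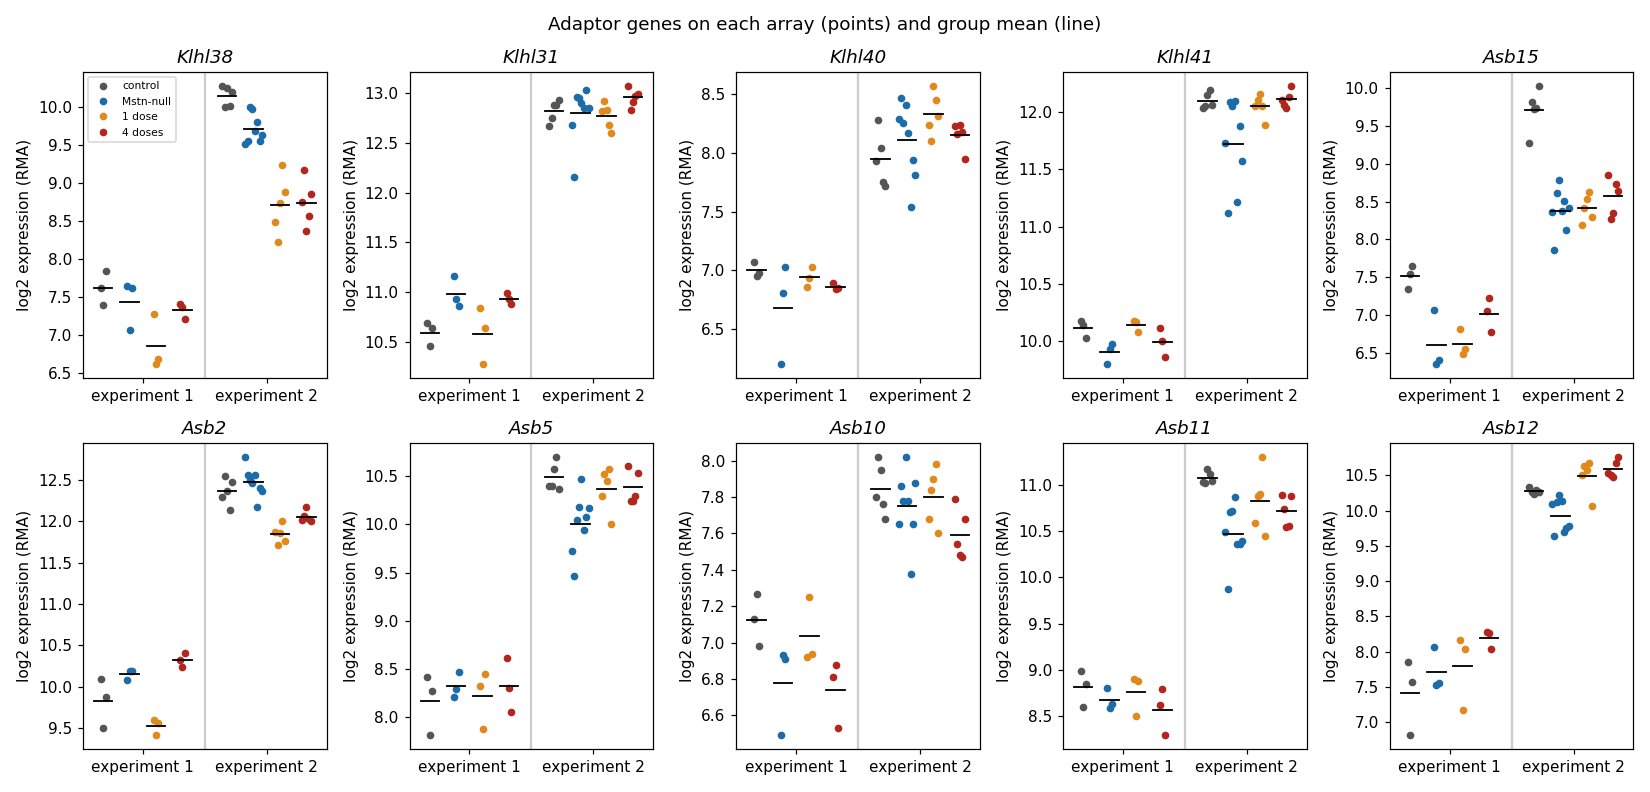
Log2 expression (y axis) of each of the 10 genes on every array, by experiment (x axis) and class (colour), with a line at each group mean. Asb15 of every class lies below its controls in both experiments, and Klhl38 after 1 or 4 doses lies near 8.71 and 8.74 in experiment 2 against 10.15 in controls.

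Of the 6 SOCS box genes, Asb15 had the largest change against control in every class. Asb15 is a muscle member that has been studied in rodent muscle for its effect on muscle growth. In experiment 1 it read 7.34, 7.54 and 7.65 on control arrays, 6.35, 6.40 and 7.07 on Mstn-null arrays, 6.48, 6.55 and 6.81 after 1 dose and 6.78, 7.05 and 7.22 after 4 doses. In experiment 2 the control arrays read 9.28, 9.72, 9.73, 9.81 and 10.03, and the 8 Mstn-null arrays ran from 7.86 through a median of 8.40 to 8.79. The 5 arrays after 1 dose read 8.19, 8.30, 8.42, 8.53 and 8.63, and those after 4 doses 8.27, 8.35, 8.64, 8.73 and 8.85. In both experiments all arrays of the other classes were therefore below all controls. Such a separation downwards in both experiments was found in 2.57% of all genes for the Mstn-null class, 0.391% after 1 dose and 0.808% after 4 doses. The shares within each experiment, in either direction, are given with the counts of members below.

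Over both experiments Asb15 was lower by 2.26-fold in the Mstn-null class, a log2 change of -1.17 ± 0.12 SE (adjusted p = 3.78e-08). After 1 dose it was 2.22-fold lower (-1.15 ± 0.13 SE, adjusted p = 8.05e-07), and after 4 doses 1.86-fold lower (-0.90 ± 0.13 SE, adjusted p = 2.19e-05). Ordered from the lowest change over the 19938 genes, Asb15 held rank 120 in the Mstn-null class, rank 9 after 1 dose and rank 26 after 4 doses. None of the differences among the classes with lower Asb15 passed: 1 dose and Mstn-null differed by 0.03 (95% confidence interval -0.22 to 0.27, adjusted p = 0.892), 4 doses and Mstn-null by 0.28 (0.03 to 0.52, adjusted p = 0.0936), and 4 doses and 1 dose by 0.25 (-0.01 to 0.51, adjusted p = 0.702). In experiment 1 alone only the Mstn-null change was called (-0.90, adjusted p = 0.00985), and the change of -0.90 after 1 dose was not (adjusted p = 0.0984). Leaving out any 1 array kept all 3 calls over both experiments.

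The promoter windows of Asb15 and Asb2, the SOCS box genes that fell after 1 dose, are shown from 250 bases before to 50 bases after the annotated start, as RefSeq gives them for the assembly GRCm38.p6, 5′ to 3′ on the strand of the gene. The Asb15 gene occupies chr6:24528144-24573164 and its window chr6:24527894-24528193 on the plus strand. Asb2 occupies chr12:103321142-103356001 on the minus strand and has 2 annotated starts, with windows chr12:103355952-103356251 and chr12:103338341-103338640. Capitals mark E-boxes (CANNTG), forkhead motifs (GTAAACA or ATAAACA), the MEF2 motif and the CArG box, searched on both strands, and no marked matches overlap.
Asb15: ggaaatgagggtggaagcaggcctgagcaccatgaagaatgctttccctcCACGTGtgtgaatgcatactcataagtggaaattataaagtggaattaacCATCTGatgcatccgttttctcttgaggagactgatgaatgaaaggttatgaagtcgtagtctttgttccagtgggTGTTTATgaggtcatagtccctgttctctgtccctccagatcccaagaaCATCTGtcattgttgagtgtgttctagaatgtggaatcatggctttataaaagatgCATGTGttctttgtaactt
Asb2 first start: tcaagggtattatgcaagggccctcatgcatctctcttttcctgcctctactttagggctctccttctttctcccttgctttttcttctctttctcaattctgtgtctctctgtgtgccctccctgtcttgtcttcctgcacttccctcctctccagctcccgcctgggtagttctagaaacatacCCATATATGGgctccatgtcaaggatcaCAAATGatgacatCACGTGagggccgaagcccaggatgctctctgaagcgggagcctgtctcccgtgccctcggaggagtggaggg
Asb2 second start: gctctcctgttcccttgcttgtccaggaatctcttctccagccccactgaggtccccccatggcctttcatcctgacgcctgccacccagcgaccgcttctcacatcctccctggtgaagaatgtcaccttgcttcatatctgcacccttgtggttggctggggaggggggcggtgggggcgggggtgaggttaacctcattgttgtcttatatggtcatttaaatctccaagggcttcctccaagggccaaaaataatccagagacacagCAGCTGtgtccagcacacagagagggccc
The Asb15 window holds 4 E-boxes and, from position -74, the reverse complement TGTTTAT of the second forkhead form. That form is present in 4.6% of the 32851 RefSeq promoter windows of this length, and in 1 of the 12 windows of the 9 members that have one. The first Asb2 window holds a CArG box, CCATATATGG, from position -64, which 1.63% of all windows have. E-boxes were in 11 of the 12 member windows against 72.3% of all windows, and the SMAD motif CAGAC, not marked, in 7 against 49.6%. The first forkhead form was in 0 of the 12 and in 3.65% of all windows. Matches describe the letters of these windows and were not tested for use.

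Asb2 was the member whose level differed most between 1 and 4 doses. Its protein directs filamins, which crosslink actin, to degradation in muscle cells. In experiment 1 Asb2 read 9.50, 9.88 and 10.09 on control arrays, 9.41, 9.56 and 9.60 after 1 dose and 10.24, 10.32 and 10.41 after 4 doses. In experiment 2 it read 12.14, 12.30, 12.37, 12.48 and 12.55 on control arrays, 11.72, 11.76, 11.86, 11.87 and 12.01 after 1 dose and 12.00, 12.02, 12.03, 12.07 and 12.18 after 4 doses. The arrays after 1 dose lay below all controls in experiment 2 and overlapped them in experiment 1, and those after 4 doses lay above all controls in experiment 1 and overlapped them, on the low side, in experiment 2. After 1 dose Asb2 was 1.36-fold lower than control (-0.44 ± 0.10 SE, adjusted p = 0.0159). Without control replicate 5 of experiment 2 the adjusted p was 0.0506 at a change of -0.41.

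After 4 doses Asb2 stood at 0.50 ± 0.13 SE above control in experiment 1 (adjusted p = 0.0602) and at -0.30 ± 0.10 SE in experiment 2 (adjusted p = 0.0884), and over both experiments at -0.00 (95% confidence interval -0.21 to 0.20, adjusted p = 0.994). The difference between the experiments was -0.81 (95% confidence interval -1.13 to -0.48) and missed the threshold (adjusted p = 0.0568). Between 4 doses and 1 dose Asb2 was the only member called of the 10, higher by 0.44 ± 0.10 SE after 4 doses (adjusted p = 0.0422), in a comparison that called 0.321% of all genes. The change was 0.80 in experiment 1 (adjusted p = 0.00121, where 0.431% of all genes were called) and 0.22 in experiment 2 (adjusted p = 0.673, 0.236% called), and the call was lost in 12 of the 35 fits that left out 1 array. Against the Mstn-null class, in which Asb2 read 10.08, 10.19 and 10.19 in experiment 1 and from 12.18 to 12.78 in experiment 2, Asb2 was lower after 1 dose in both experiments (-0.63, adjusted p = 0.00444, and -0.64, adjusted p = 5.35e-05), where 2.11% and 14.8% of all genes were called.

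Asb11 was lower in Mstn-null muscle. In zebrafish its relative acts in Notch signalling by degrading the ligand Delta. In experiment 2 Asb11 read from 11.02 to 11.17 on control arrays and from 9.87 through a median of 10.44 to 10.87 on Mstn-null arrays, without overlap, whereas in experiment 1 the values 8.59, 8.63 and 8.80 overlapped the controls at 8.60, 8.85 and 8.99. The change was -0.46 ± 0.11 SE over both experiments (adjusted p = 0.00167), -0.60 in experiment 2 (adjusted p = 0.000596) and -0.14 in experiment 1 (adjusted p = 0.773). Over both experiments Asb11 held rank 1622 from the lowest of all 19938 genes, of which 16.4% were called lower. All 5 arrays after 4 doses, from 10.54 to 10.89, also lay below the controls of experiment 2, but the change of -0.32 over both experiments missed the threshold (adjusted p = 0.159).

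Asb12 gave the only called rise against control among the members. Its 3 arrays after 4 doses in experiment 1 read 8.03, 8.27 and 8.28 against 6.81, 7.57 and 7.85 in controls. In experiment 2 the arrays after 4 doses read 10.47, 10.50, 10.53, 10.67 and 10.76 against 10.24, 10.26, 10.27, 10.29 and 10.34 in controls. The groups did not overlap in either experiment. Of all genes, 5.78% lay wholly above the controls after 4 doses in experiment 1 and 4.15% in experiment 2. The share that did so in both was not computed. Over both experiments Asb12 was 1.40-fold higher (0.49 ± 0.14 SE, adjusted p = 0.0435). This call rested on little margin, since 14 of the 35 fits without 1 array lost it (adjusted p up to 0.105), while the change stayed between 0.36 and 0.52. Of 11 other settings of processing or samples 4 also lost it. In the Mstn-null class all 8 arrays of experiment 2, from 9.64 to 10.22, lay below the controls, at a change of -0.35 (adjusted p = 0.0524), and the 3 of experiment 1, at 7.52, 7.55 and 8.07, overlapped them. Against the Mstn-null class Asb12 was higher after 1 dose (0.41 ± 0.13 SE, adjusted p = 0.0253) and after 4 doses (0.62 ± 0.13 SE, adjusted p = 0.00146), calls lost in 4 and 2 of the 11 settings.

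Asb10, in which human variants have been studied in glaucoma, was lower by 0.30 ± 0.09 SE after 4 doses (adjusted p = 0.0454). It read 6.53, 6.81 and 6.88 after 4 doses in experiment 1, below the controls at 6.98, 7.13 and 7.27, and 7.47, 7.48, 7.54, 7.68 and 7.79 in experiment 2, where the controls from 7.68 to 8.02 overlapped them. Of the 35 fits that left out 1 array 18 lost this call, with adjusted p up to 0.111, as did 6 of 11 other settings (up to 0.348). Asb5, first described in growing arteries of the rabbit, was called in no comparison over both experiments. In the Mstn-null class of experiment 2 it ran from 9.47 through a median of 10.06 to 10.47 against 10.37 to 10.70 in controls, with 7 of 8 arrays below every control and a change of -0.48 (adjusted p = 0.00496). In experiment 1 the Mstn-null arrays at 8.21, 8.29 and 8.47 overlapped controls at 7.81, 8.27 and 8.42.

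Of the 4 kelch genes, Klhl38 was the one that fell after the doses. In experiment 1 it read 7.39, 7.62 and 7.84 on control arrays, 7.06, 7.61 and 7.64 on Mstn-null arrays, 6.61, 6.68 and 7.27 after 1 dose and 7.21, 7.37 and 7.41 after 4 doses. In experiment 2 the controls read 10, 10.01, 10.20, 10.25 and 10.28, and the Mstn-null arrays ran from 9.51 through a median of 9.65 to 10. After 1 dose the arrays read 8.22, 8.49, 8.74, 8.88 and 9.24, and after 4 doses 8.36, 8.57, 8.75, 8.85 and 9.17. Both treated groups thus lay below all controls and all Mstn-null arrays in experiment 2, while in experiment 1 only the arrays after 1 dose cleared the controls.

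Klhl38 was 2.27-fold lower after 1 dose (-1.18 ± 0.16 SE, adjusted p = 1.03e-05) and 1.98-fold lower after 4 doses (-0.99 ± 0.16 SE, adjusted p = 8.8e-05). These changes held ranks 7 and 19 from the lowest of all 19938 genes. In Mstn-null muscle the change was -0.31 ± 0.14 SE (95% confidence interval -0.61 to -0.02, adjusted p = 0.0765). It passed in experiment 2 (-0.43, adjusted p = 0.0144), without any test showing that it differed from the change in experiment 1 (adjusted p = 0.57). Set against the Mstn-null class directly, Klhl38 was lower after 1 dose (-0.87 ± 0.14 SE, adjusted p = 0.000138) and after 4 doses (-0.67 ± 0.14 SE, adjusted p = 0.00186). From high to low in experiment 2 the order was thus control, Mstn-null, 4 doses and 1 dose, and the last neighbours, 8.74 ± 0.31 (SD, n = 5) and 8.71 ± 0.39 (SD, n = 5), did not differ beyond their spread (adjusted p = 0.991).

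The change of Klhl38 in experiment 1 was -0.76 after 1 dose (adjusted p = 0.301) and -0.29 after 4 doses (adjusted p = 0.709), and neither was called there. In experiment 2 the changes were -1.43 (adjusted p = 1.1e-06) and -1.41 (adjusted p = 4.99e-07). The difference between the experiments was -1.12 for 4 doses (95% confidence interval -1.65 to -0.60, adjusted p = 0.147) and -0.67 for 1 dose (-1.20 to -0.14, adjusted p = 0.964). Klhl38 lies at chr15:58314573-58324169 (GRCm38.p6).

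**Figure D2:**
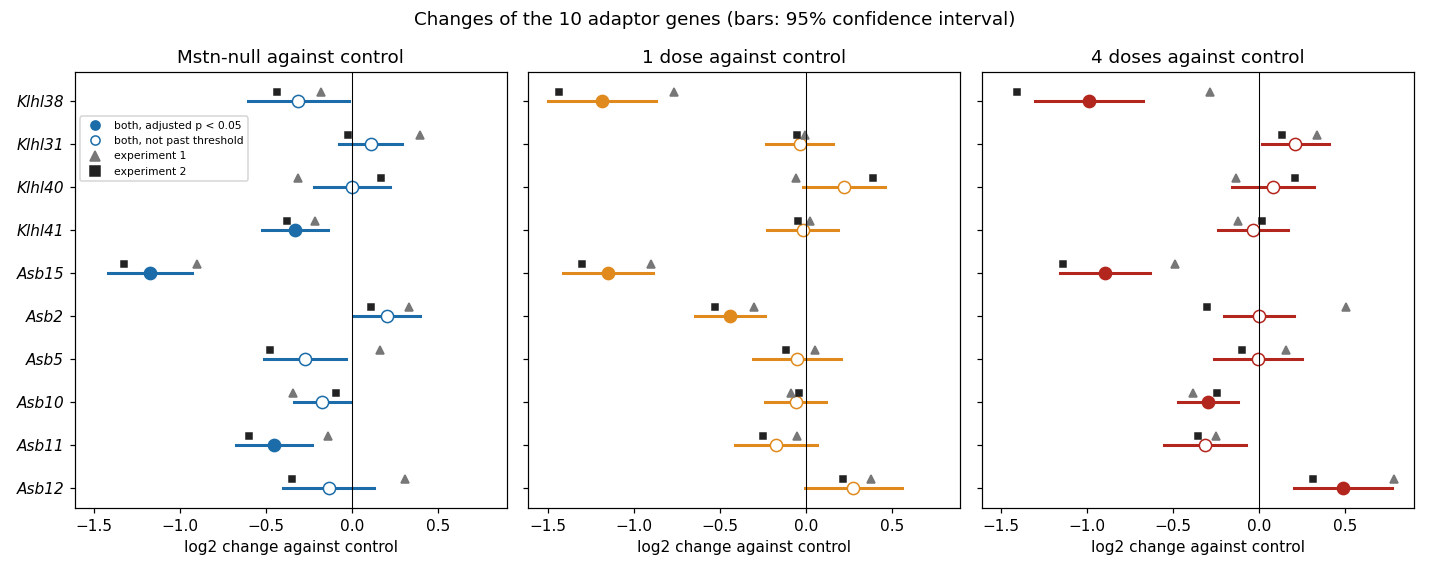
Log2 change against control (x axis) of the 10 genes (y axis) in Mstn-null muscle, after 1 dose and after 4 doses, as circles over both experiments with 95% confidence intervals, filled where the adjusted p was under 0.05. Triangles are experiment 1 and squares experiment 2, and the 2 differ widest for Klhl38 after 4 doses, at -0.29 and -1.41.

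Klhl41, which binds the actin-associated protein Nrap and stabilises thin filaments, was lower in Mstn-null muscle by 0.33 on the log2 scale (change -0.33 ± 0.09 SE, adjusted p = 0.00601). Klhl41 held rank 2418 from the lowest of all 19938 genes there, of which 16.4% were called lower. In experiment 1 its Mstn-null arrays read 9.80, 9.93 and 9.98, all below the controls at 10.03, 10.14 and 10.18, as was found in 13.9% of all genes. In experiment 2 its Mstn-null arrays spread from 11.12 through a median of 11.80 to 12.10, while the controls lay between 12.04 and 12.19. Replicates 2 and 6 gave the low values of 11.12 and 11.22, and replicates 3, 4 and 5 overlapped the controls. Klhl41 did not pass after 1 dose (-0.02, 95% confidence interval -0.22 to 0.19, adjusted p = 0.959) or 4 doses (-0.04, -0.24 to 0.17, adjusted p = 0.908). Against the Mstn-null class it was higher after 1 dose (0.31 ± 0.09 SE, adjusted p = 0.0196) and 4 doses (0.30 ± 0.09 SE, adjusted p = 0.0257). Each of these calls was lost in 5 of 11 other settings, with changes down to 0.15 and 0.09, and the call against control in 3 of 11, with a change of -0.10 after quantile normalisation.

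Klhl41 and Asb11, the members that fell in Mstn-null muscle with Asb15, have their windows at chr2:69669870-69670169 and chrX:164436744-164437043 (GRCm38.p6, plus strand), with capitals as above.
Klhl41: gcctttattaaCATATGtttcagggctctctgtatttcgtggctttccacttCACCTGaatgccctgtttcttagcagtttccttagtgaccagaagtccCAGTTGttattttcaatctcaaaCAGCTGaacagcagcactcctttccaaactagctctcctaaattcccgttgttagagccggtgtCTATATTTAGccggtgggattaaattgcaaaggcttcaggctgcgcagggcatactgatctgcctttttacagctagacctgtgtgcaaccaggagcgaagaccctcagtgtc
Asb11: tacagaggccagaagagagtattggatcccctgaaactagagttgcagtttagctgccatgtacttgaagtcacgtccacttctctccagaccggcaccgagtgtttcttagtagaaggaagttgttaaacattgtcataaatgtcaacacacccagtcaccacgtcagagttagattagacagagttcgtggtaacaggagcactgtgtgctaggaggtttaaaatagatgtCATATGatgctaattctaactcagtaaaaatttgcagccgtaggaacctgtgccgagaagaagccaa
The Klhl41 window holds 4 E-boxes and a MEF2 motif, CTATATTTAG, from position -63, and the Asb11 window 1 E-box. MEF2 motifs were in 3 of the 12 member windows (Klhl41, Asb5 and Asb12) and in 1.86% of all windows.

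Klhl31 and Klhl40 were not called. Klhl31, whose loss causes a myopathy in mice, lay above all controls of experiment 1 on the Mstn-null arrays (10.86, 10.93 and 11.16) and after 4 doses (10.88, 10.93 and 10.99), against 10.46, 10.64 and 10.69 in controls. Of all genes, 11.6% and 5.78% lay above the controls in this way. In experiment 2 Klhl31 overlapped the controls in every class, and its change over both experiments was 0.11 (adjusted p = 0.335) in the Mstn-null class and 0.21 (adjusted p = 0.297) after 4 doses. Of 11 other settings, 2 gave it a call in the Mstn-null class (adjusted p down to 0.011) and 1 after 4 doses (down to 0.0287). Klhl40, known to stabilise nebulin and leiomodin 3 in mouse muscle, stood at -0.00 (95% confidence interval -0.22 to 0.22, adjusted p = 0.998) in Mstn-null muscle. After 1 dose it stood at 0.22 (adjusted p = 0.46) and after 4 doses at 0.08 (adjusted p = 0.816).

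By comparison, 3 of the 10 members were lower and 0 higher in Mstn-null muscle, where 16.4% of all genes were called lower and 25.4% higher. The members' median change was -0.23, against 0.09 over all genes. With arrays centred on their medians, 1905 of 6094 called genes were higher, compared with 5062 of 8337 without centring. After 1 dose 3 members were lower, Klhl38, Asb15 and Asb2, where 0.572% of all genes were called lower and 0.542% higher, and the median was -0.06 against 0.02. With centring the share of higher calls there was 59 of 204 rather than 108 of 222. After 4 doses 3 members were lower and 1 higher, where 1.23% and 1.91% of all genes were called, and the medians were -0.02 and 0.02. Centring gave 232 higher of 549 called, against 380 of 626. Against the Mstn-null class 4 members were called after 1 dose (16.8% of all genes) and 3 after 4 doses (20.2%). The members were chosen with earlier results of these data known, so these counts beside the shares are a description and no test.

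Within the experiments, the Mstn-null class had 1 member called in experiment 1 (3.48% of all genes) and 5 in experiment 2 (45.6%). The 1-dose class had 0 called members in experiment 1 (0.0502%), where 3 had an unadjusted p under 0.05, and 3 in experiment 2 (1.63%). The 4-dose class had 0 in experiment 1 (0.471%), where 5 had an unadjusted p under 0.05, and 2 in experiment 2 (2.96%). None of the 10 members passed in the test of a difference between the experiments for any class, where limma called 1.68%, 0% and 0.00502% of all genes. In this test 4 members had an unadjusted p under 0.05 in the Mstn-null class (Klhl31, Klhl40, Asb5 and Asb12), 1 after 1 dose (Klhl38) and 3 after 4 doses (Klhl38, Asb15 and Asb2).

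Counting arrays that lay wholly on 1 side of the controls, experiment 1 had 3 members below and 1 above in the Mstn-null class (13.9% and 11.6% of all genes), 2 and 0 after 1 dose (4.47% and 4.71%) and 3 and 3 after 4 doses (7.8% and 5.78%). Experiment 2 had 3 and 0 in the Mstn-null class (5.52% and 8.24%), 3 and 0 after 1 dose (2.94% and 4.17%) and 3 and 1 after 4 doses (2.8% and 4.15%).

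Slow fibre transcripts were called lower in the Mstn-null class and after 4 doses, at median changes of -2.22 and -1.49. After 1 dose their median change was -0.93, against 0.02 over all genes, and none was called. All 10 genes of the slow fibre list fell in Mstn-null muscle and 9 fell after 4 doses, with list means in experiment 2 from 9.91 to 10.55 on control arrays, 6.77 to 9.38 on Mstn-null arrays and 7.74 to 9.57 after 4 doses. After 1 dose none of the 10 passed, 6 had an unadjusted p under 0.05, and the list mean in experiment 2 ran from 7.75 to 10.48. In experiment 1 the list mean was 7.54 to 9.20 in controls, 5.70 to 6.95 in the Mstn-null class, 6.39 to 8.58 after 1 dose and 6.12 to 7.34 after 4 doses. Over the 35 arrays, with the mean of each experiment removed, the list mean correlated with Klhl41 at 0.66, Asb11 at 0.57, Asb15 at 0.57 and Klhl38 at 0.11. With the mean of every group removed, so that class differences no longer entered, these correlations were 0.50, 0.23, 0.23 and 0.24 in the same order. The interquartile range of an array's values, a measure of its overall spread, ran from 2.14 to 2.42 on Mstn-null arrays and 2.50 to 2.65 on control arrays of experiment 2. In experiment 1 it ran from 2.39 to 2.44 and from 2.47 to 2.74. The Mstn-null and control ranges overlapped in neither experiment, so array spread and class cannot be told apart here. With that range as a covariate the Mstn-null changes were -0.12 for Klhl41 (adjusted p = 0.6) and -0.18 for Asb11 (adjusted p = 0.47), while the Asb15 call held. Over all genes, 596 were then called in that class rather than 8337. The part of fibre type and array spread in these results was not tested further.

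Markers of other cell types were called as well. Of 6 macrophage markers 3 were higher in Mstn-null muscle and 4 after 4 doses, with list means in experiment 2 from 6.64 to 7.05 in controls, 6.84 to 7.81 in the Mstn-null class, 6.80 to 7.80 after 1 dose and 7.52 to 7.83 after 4 doses. In experiment 1 these means were 4.78 to 5.50 in controls, 4.91 to 5.26 in the Mstn-null class, 5.09 to 5.51 after 1 dose and 5.21 to 5.65 after 4 doses. The markers lay between percentile 27.9 and 83.5 of all genes on control arrays. Of 6 endothelial markers 4 were lower in Mstn-null muscle. Their list mean ran from 5.93 to 6.11 there against 6.23 to 6.70 in controls in experiment 1, without overlap, and from 7.32 to 8.33 against 8.27 to 8.33 in experiment 2. After 1 dose none of either list was called over both experiments, where 4 macrophage markers and 1 endothelial marker had an unadjusted p under 0.05, but in experiment 2 alone 2 macrophage markers were higher, at a list median of 0.60. Among 6 satellite cell markers 2 were higher and 2 lower in Mstn-null muscle, with list means from 6.53 to 6.72 against 6.72 to 6.78 in controls of experiment 2. Over both experiments 2 of 6 smooth muscle markers and 3 of 8 fast fibre genes were lower in that class too, with list means in experiment 2 from 7.52 to 8.16 against 7.93 to 8.11 and from 12.70 to 13.36 against 13.28 to 13.37. Of 6 adipocyte markers 1 was lower in that class, and of 6 heart markers 1 was higher and 1 lower. After 4 doses 1 satellite cell and 1 heart marker were higher and 1 smooth muscle marker lower. These counts stand against the shares of all genes given above for each class, and the part of other cells in the changes of the members was not tested.

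The gene most like Klhl38 across the 35 arrays, with experiment means removed, was Fbxo32, which encodes the atrophy-linked F-box adaptor atrogin-1 of a cullin 1 ligase (Pearson r = 0.898), followed by Mss51 (0.858) and Npc1 (0.852). Within experiment 1 the correlation with Fbxo32 was 0.944 and within experiment 2 0.894, as a description over arrays that share their classes. In experiment 2 Fbxo32 read 11.24 ± 0.22 (SD, n = 5) in controls, 10.77 ± 0.38 (SD, n = 8) in the Mstn-null class, 9.96 ± 0.16 (SD, n = 5) after 1 dose and 10.15 ± 0.33 (SD, n = 5) after 4 doses. It fell after 1 dose (-1.02 ± 0.14 SE) and 4 doses (-0.76 ± 0.14 SE), and in the Mstn-null class it stood at -0.31 ± 0.13 SE (adjusted p = 0.0593). The classes of Fbxo32 in experiment 2 therefore stood in the order of those of Klhl38.

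**Figure D3:**
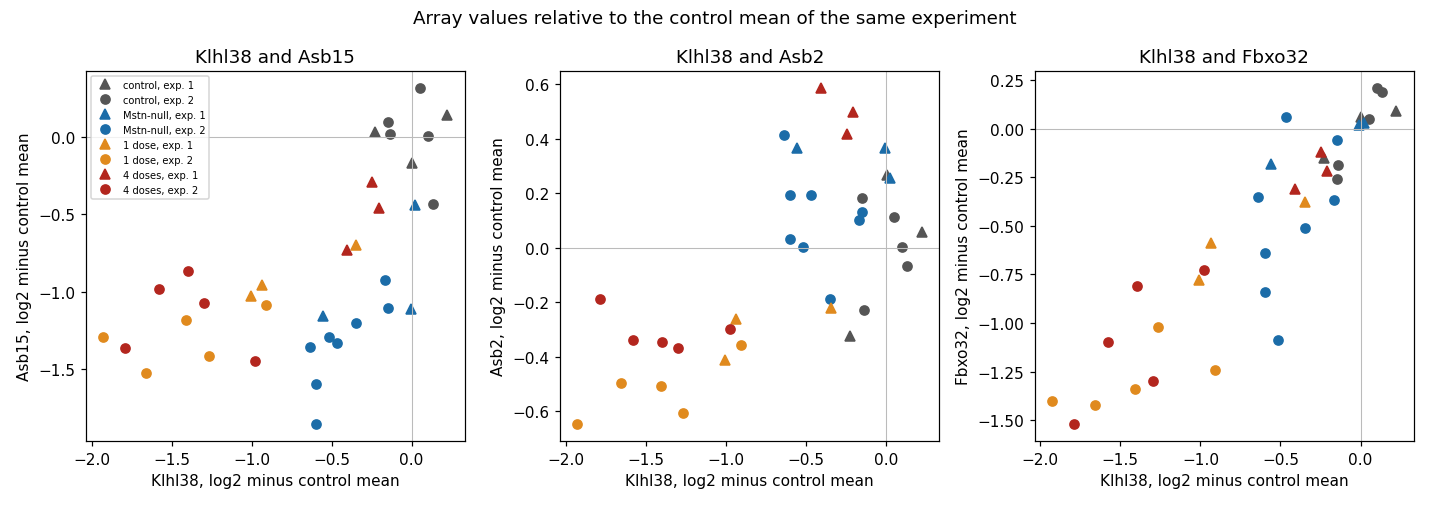
Values of Asb15, Asb2 and Fbxo32 (y axes) against Klhl38 (x axes) on each array, as log2 differences from the control mean of the same experiment, with colour for class and shape for experiment. Fbxo32 follows Klhl38 over all arrays. Their r of 0.898 was computed with each experiment's mean of all arrays removed, not from the points as drawn. Mstn-null arrays are low in Asb15 without being as low in Klhl38 as the treated arrays of experiment 2.

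The genes most like the other members differed from gene to gene. Asb15 was nearest to Rilpl1 (0.849), Fmo2 (0.823) and Lrrc52 (0.821), and Asb2 to the autophagy receptor gene Sqstm1 (0.839), Cacng1 (0.791) and Grina (0.782). Klhl41 was nearest to Polr2m (0.961), the mitochondrial ATP and ADP carrier gene Slc25a4 (0.954) and Atp5j (0.937), and Asb11 to Polr2b (0.883), Cog6 (0.882) and Riok2 (0.88). For Klhl31 they were Ipo11 (0.846), Taok1 (0.843) and Neb (0.842), which encodes the thin filament protein nebulin. For Klhl40 they were Kctd15 (0.865), the kelch gene Klhl30 (0.86) and Lman2 (0.839). Asb5 was nearest to Hbp1 (0.898), Sugt1 (0.895) and Txndc9 (0.894), Asb10 to Abcf3 (0.816), Gpat4 (0.791) and Mief2 (0.789), and Asb12 to Ywhah (0.879), St3gal6 (0.862) and Smyd1 (0.861), a muscle methyltransferase gene. Among the members themselves the highest correlation was that of Asb5 and Asb11, at 0.79, and also 0.79 after the mean of every group was removed.

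The other genes of both families were read in the same fit. The members and lists were chosen with earlier results of these data known, so setting their counts side by side is no test. Of 12 other Asb genes 0 were called after 1 dose, where 2 had an unadjusted p under 0.05, and 0 after 4 doses, where 1 had. In Mstn-null muscle 3 of the 12 were higher, among them Asb17 (0.24), Asb6 (0.19) and Asb1 (0.14), and 3 lower, with Asb13 at -0.42. Of all genes, 25.4% were called higher and 16.4% lower in this class. The 12 had a median change of -0.04 in that class, against 0.09 over all genes. Of 43 other kelch genes measured, of 48 listed, 9 were higher and 11 lower in Mstn-null muscle, with Klhl33 at -0.85, Klhl34 at -0.63, Ivns1abp at -0.60 and Klhl22 at -0.44. After 1 dose 0 of the 43 were called, and 8 had an unadjusted p under 0.05. The shares of all genes called higher and lower were 0.542% and 0.572% after 1 dose, and 1.91% and 1.23% after 4 doses. After 4 doses Klhl33 (-0.71 ± 0.16 SE, adjusted p = 0.0079), Klhl34 (-0.54 ± 0.11 SE, adjusted p = 0.00149) and Klhl2 (-0.51 ± 0.13 SE, adjusted p = 0.0141) were lower and Klhl6 higher (0.34 ± 0.09 SE, adjusted p = 0.0339).

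The ligase parts that these adaptors need were read in the same fit, and those named first are from Mstn-null muscle, where 16.4% of all genes were lower and 25.4% higher. Of the 5 cullin 5 ligase genes Rnf7, the RING subunit (-1.17 ± 0.17 SE, adjusted p = 5.95e-06), Eloc, elongin C (-1.14 ± 0.22 SE, adjusted p = 0.000186), and Arih2, a partner ligase (-0.21), were lower there, and Elob, elongin B, was higher (0.29). Of the 3 cullin 3 genes Cul3 (-0.80 ± 0.19 SE, adjusted p = 0.00165) and Rbx1 (-0.40 ± 0.10 SE, adjusted p = 0.00174) were lower. Of 22 measured genes of the NEDD8 cycle and the COP9 signalosome, which attach NEDD8 to cullins and remove it, 10 were lower and 1 higher, with Nedd8 at -1.47, Uba3 at -1.16, Nae1 at -1.03 and Dcun1d1 at -0.91. Their median change was -0.19. In experiment 1 alone 1 of these 22 was lower and 1 higher at a median of -0.01, against 0.01 over all genes, and in experiment 2 10 were lower and 1 higher at -0.28 against 0.11. The cullin 5 genes had 1 lower and a median of 0.02 in experiment 1, and 4 lower, 1 higher and a median of -0.49 in experiment 2. The cullin 3 genes had 0 called in experiment 1 at a median of -0.23, where 0 had an unadjusted p under 0.05, and 2 lower in experiment 2 at -0.47. After 1 dose none of the genes of these 3 lists was called and 1, in the cullin 5 list, had an unadjusted p under 0.05. After 4 doses only Elob was called (0.34, adjusted p = 0.0264). Mstn-null arrays also had the lower overall spread of values given above. With that spread, the interquartile range, as a covariate, 596 of all genes were called in Mstn-null muscle rather than 8337. How the calls of these lists fared under it is not given here. In experiment 2 the cullin 5 list means ran from 8.73 to 9.84 on Mstn-null arrays and 9.73 to 9.88 on controls. For cullin 3 they were 9.55 to 10.67 against 10.65 to 10.83, and for NEDD8 and COP9 7.99 to 8.82 against 8.84 to 9.01.

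Among 6 measured clients and partners of the adaptors, Lmod3, leiomodin 3 (-1.09 ± 0.18 SE, adjusted p = 3.85e-05), was lower and Des, desmin (0.27 ± 0.07 SE, adjusted p = 0.00231), higher in Mstn-null muscle. None of the 6 was called after 1 or 4 doses, and none had an unadjusted p under 0.05. Of 16 other ligase genes of muscle, 3 were lower after 1 dose: Fbxo32, Trim63, which encodes the atrophy-linked RING ligase MuRF1 (-0.93 ± 0.16 SE), and Fbxo40 (-0.25 ± 0.06 SE). After 4 doses Trim63 (-0.87 ± 0.16 SE) and Fbxo32 were lower and Fbxl22 higher (0.30 ± 0.08 SE). In Mstn-null muscle 4 of the 16 were lower, Fbxo30 (-0.78), Trim63 (-0.60), Stub1 (-0.35) and Fbxo40 (-0.22), and 1 was higher. Of all genes, 16.4% were called lower and 25.4% higher in that class. These shares were 0.572% and 0.542% after 1 dose, and 1.23% and 1.91% after 4 doses.

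**Figure D4:**
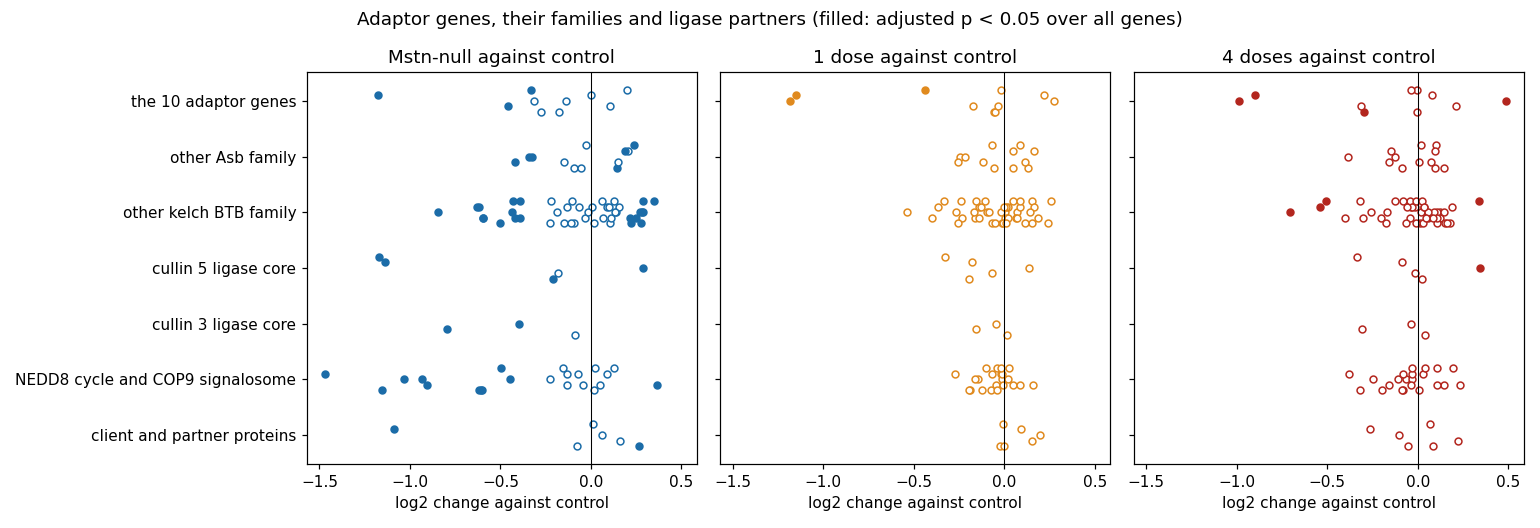
Log2 change against control (x axis) of each gene (points) in the 10 adaptor genes, both families, the ligase cores, the NEDD8 and COP9 genes and the clients (rows), for each class (panels), filled where the adjusted p over all genes was under 0.05. After 1 dose the 3 filled points are members, Klhl38, Asb15 and Asb2. The 16 other ligase genes of muscle are not drawn, and 3 of them (Fbxo32, Trim63 and Fbxo40) were also called lower after 1 dose. The members and lists were chosen with earlier results of these data known, so this contrast is no test of the set.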

How the data were processed

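The deposited log2 expression values come from RMA, run by the authors per the submitters' processing notes. The notes also list limma 3.4.4 and R 2.11.1, with no role stated. The base of the logarithm was read from the size of the values. Whether both experiments were normalised together, and the genome build of the probe design, are not given in the sources used here. Signal over background was not analysed here. Of 35556 rows, 21789 had 1 gene symbol and 1621 several. A total of 21698 matched a RefSeq gene of GRCm38.p6 by gene number. Only rows with 1 symbol were used, 1 per gene, which gave 19938 genes.

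Class and experiment were the terms of a linear model of all 35 arrays, fitted with lmFit and eBayes of limma 3.58.1 (R 4.3.3, two-sided tests). Changes within an experiment and the difference between experiments came from a fit of 8 group means. All 10 members are described. Of the other lists, up to 4 called genes with the smallest p are named per comparison, and for each member the 3 genes with the highest correlation. The members and lists were chosen with earlier results of these data known. On simulated data with 19938 genes, changes of 0.5 and 1 on the log2 scale were called in 85% and 98% of cases for 1 dose over both experiments and in 33% and 90% in experiment 1. The simulated noise was independent between arrays, and a gene had the same spread on every array. Differences in quality between arrays were thus absent, and these rates may be too high for the data. Alternatives were median centring, quantile normalisation, the interquartile range as a covariate, array weights, a variance prior with trend, averaging a gene's rows, leaving out dim genes, a replicate block, each experiment alone and leaving out each array.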

Additional observations from a re-analysis of the deposited data

Results flagged for a closer look

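In 40 groups tested for a single array far from the rest, 2 stood apart. All members were read on the same arrays, so these groups are not independent and the count is not set against chance. On Mstn-null replicate 2 of experiment 2 Klhl31 read 12.16 while the other 7 arrays lay between 12.68 and 13.03, a gap of 0.595 of the group's range. That array was also the lowest of its group for Klhl41, Asb15, Asb5, Asb11 and Asb12, but not for Klhl38, Klhl40, Asb2 and Asb10. After 1 dose in experiment 2, replicate 5 read 10.07 for Asb12 while the other 4 lay between 10.51 and 10.67, a gap of 0.726 of the range. Replicate 5 was also the lowest of that group for Klhl31, Klhl41, Asb5, Asb10 and Asb11, but not for Klhl38, Klhl40, Asb15 and Asb2.

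For 4 changes all arrays of a class lay on one side of the control mean in experiment 1 and on the other in experiment 2. The experiments differed by -0.64 for Asb5 (adjusted p = 0.114) and by -0.66 for Asb12 (adjusted p = 0.139) in Mstn-null muscle. After 4 doses they differed by 0.34 for Klhl40 (adjusted p = 0.809) and by -0.81 for Asb2 (adjusted p = 0.0568). None of these differences passed limma's test over all genes.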

How the results depend on the processing

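Asb15 kept its call and direction in all 3 comparisons against control, and Klhl38 after 1 and 4 doses, under every alternative except experiment 1 fitted alone (adjusted p up to 0.33 for Asb15 and 0.657 for Klhl38 there); the Asb15 call in Mstn-null muscle held there too. Counts of called members that moved by more than 1.5 times, or to or from 0, are given in turn, and the others lay within that margin. For Mstn-null against control the 3 became 6 with centred arrays, 1 with the interquartile range as a covariate, 5 with array weights (gene by gene, since the default method did not converge), 1 in experiment 1 alone and 6 in experiment 2 alone. For 1 dose against control the 3 became 0 in experiment 1 alone. For 4 doses against control the 4 became 0 in experiment 1 alone and 2 in experiment 2 alone. They also became 2 without replicates 1 and 3 of the 4-dose class of experiment 2, low in slow fibre genes, an alternative chosen after seeing the data. For 4 doses against 1 dose the 1 became 2 with array weights and 0 with centring, quantile normalisation, the variance prior with trend, the replicate block, experiment 2 alone or without those 2 arrays. For 1 dose against Mstn-null the 4 became 2 with the interquartile range, 2 with the replicate block and 1 in experiment 1 alone, and for 4 doses against Mstn-null the 3 became 1, with that covariate, 0 in experiment 1 alone and 5 in experiment 2 alone. Members called within an experiment numbered 21 rather than 11 with array weights. Members that differed between experiments numbered 1 with the interquartile range, 2 with array weights, 1 without dim genes and 2 with the replicate block, rather than 0. By gene, the 4-dose call of Asb10 was lost with quantile normalisation, the interquartile range, the variance prior, either experiment alone and without those 2 arrays, and that of Asb12 with centring, either experiment alone and without those 2 arrays. The Klhl41 calls against Mstn-null were lost with quantile normalisation, the interquartile range, the replicate block and experiment 1 alone, and also in experiment 2 alone for 1 dose and without those 2 arrays for 4 doses. Calls against control were gained as well. In Mstn-null muscle Klhl38 and Asb5 each gained a call in 3 of 11 settings, Klhl31 in 2, and Asb2, Asb10 and Asb12 each in 1. After 4 doses Klhl31 and Asb11 each gained a call in 1 of 11 settings. The causes were not tested. Of 48 same-numbered pairs of arrays 18 had a correlation of deviations above 0.1 (from -0.60 to 0.41). Every pair passed 0.1 for 1 of 12 pairs of classes, control and 1 dose of experiment 1 (0.10 to 0.34), where the replicate block left 0 members called, with 4 at an unadjusted p under 0.05.

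Leaving out 1 array gave 3 to 5 called members for Mstn-null against control (5 without control replicate 2 of experiment 1), 2 to 3 for 1 dose, 2 to 4 for 4 doses, 0 to 1 between the doses, 3 to 5 for 1 dose against Mstn-null, 2 to 5 for 4 doses against Mstn-null (5 without 4-dose replicate 3 of experiment 1), 10 to 14 within experiments and 0 to 1 between experiments. The 1 appeared without control replicate 1 of experiment 1 or control replicate 4 of experiment 2. The 4-dose count fell to 2 without any of control replicates 2 and 3 or 4-dose replicates 1 and 3 or Mstn-null replicate 2 of experiment 1, or control replicates 2 and 3 or 4-dose replicates 2, 3 and 4 of experiment 2. The call between the doses was lost without any dosed array of experiment 1, Mstn-null replicate 2 of that experiment, 4-dose replicate 3 or 1-dose replicates 1, 2, 3 and 5 of experiment 2.

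The changes that reversed in sign were all below the threshold without the alternative. For Mstn-null against control Klhl40, at -0.00, became 0.15 with quantile normalisation, 0.10 with the interquartile range, 0.036 with array weights, 0.11 with the replicate block, 0.16 in experiment 2 alone and 0.00075 without those 2 arrays, and it ran from -0.053 to 0.070 when 1 array was left out. In the same comparison Klhl31 was -0.025 in experiment 2 alone, Asb5 0.16 in experiment 1 alone, and Asb12 0.099 with quantile normalisation, 0.072 with the interquartile range and 0.30 in experiment 1 alone. After 1 dose Klhl31 was 0.0044 with averaged rows and -0.074 to 0.022 without 1 array, and Klhl40 was -0.058 in experiment 1 alone. Klhl41 was then 0.049 with quantile normalisation, 0.044 with the interquartile range, 0.024 in experiment 1 alone and -0.035 to 0.0065 without 1 array, and Asb5 was 0.0073, 0.015, 0.056 and -0.13 to 0.0080 in the same order. After 4 doses Klhl40 was -0.14 in experiment 1 alone, and Klhl41 was 0.033 with the interquartile range and 0.016 in experiment 2 alone. Asb2 was then 0.0072 with quantile normalisation, 0.50 in experiment 1 alone, 0.048 without those 2 arrays and -0.080 to 0.041 without 1 array. Asb5 was 0.045 with quantile normalisation, 0.069 with the interquartile range, 0.0082 with array weights, 0.16 in experiment 1 alone and -0.087 to 0.041 without 1 array. Signal over background was not analysed, so what dim signal limits is unknown.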
